A study of Mus musculus with 12 samples.

Results

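The cytosolic ribosomal protein genes encode the proteins of the large (Rpl) and small (Rps) subunit of the ribosome that translates nuclear mRNAs. Their transcripts are among the most abundant in a growing cell, and most of them begin with a terminal oligopyrimidine (TOP) motif, a C followed by a run of C and T. Through this motif the kinase mTOR and the RNA-binding protein Larp1 control how well these mRNAs are translated and how long they are kept. IL-2 is the growth factor of activated T cells and is known to switch on mTOR in them.

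Members were chosen by a rule on gene symbols, with earlier results of these data known. They are the mouse gene symbols of the array's probe annotation made of Rpl or Rps and a digit, with Rplp0, Rplp1, Rplp2 and Rpsa, and without Rps6k kinases, pseudogenes and symbols ending in l or l1. The rule gave 43 genes, 22 of the large and 21 of the small subunit, with 95 probe sets listed with that gene alone, among 45037 probe sets on the array besides its controls. A filter on low signal, at the 40th percentile of the mean log2 value, kept 88 of the 95, from 42 genes, and 27022 probe sets in all. The single probe set of Rps16 was not kept, with a mean signal of 5.56. Rplp1, Rpl3, Rpl5, Rpl10, Rpl36a, Rps12 and Rps27a were not measured by a tested probe set of their own. A further 110 probe sets are listed with a member and other genes together, mostly pseudogenes, and are described apart.

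The samples were CTLL-2 cells, 1 cytotoxic T cell line of C57BL/6 origin that depends on IL-2, on Affymetrix Mouse Genome 430 2.0 arrays. All groups had grown in medium with 50 U/mL human recombinant IL-2, spent 14 h without it, and were then given 20 µg/mL cycloheximide, which stops translation elongation, so no comparison below has cells without that drug. The IL-2 group had 30 min of cycloheximide and then 100 U/mL human recombinant IL-2 for 4 h, the 4.5 h group had cycloheximide for 4.5 h without IL-2, and the 30 min group had it for 30 min without IL-2. The labels do not say whether the drug stayed during IL-2, nor whether the 4 arrays of a group came from separate cultures, so p-values measure only the spread between these arrays. The array labelled IL-2 replicate 3 was left out. On it 7 T cell markers summed to 222, against 114380 to 202767 on the other 11 arrays, and 7 skeletal muscle markers summed to 131250, against 346 to 607. That left 3 IL-2, 4 4.5 h and 4 30 min arrays, and their number limits the precision.

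RefSeq's promoter table (GRCm38.p6, 250 bases before to 50 after each gene's start) matched 38 of the 43 genes. A pyrimidine run of at least 8 bases that begins with C lay between 20 bases before and 50 after the start in 29 of the 38 (76.3%), against 6135 of 27025 genes in the table (22.7%). The longest such run had a median of 10 bases in members and 5 in all genes. The windows of 30 bases below belong to 10 of the 11 genes with a probe set that fell with IL-2 under each of 5 scalings, and they show that these genes differ in that run. Capitals mark the longest run that begins with C, and coordinates and strand are those of the window.

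Rpl27a (chr7:109519186-109519215, plus strand): gtgagCTCCTCCCTTTTCCCTTTCTgccac
Rpl14 (chr9:120571501-120571530, plus strand): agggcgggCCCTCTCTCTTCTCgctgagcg
Rps10 (chr17:27635226-27635255, minus strand): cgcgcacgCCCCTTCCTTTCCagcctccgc
Rpl37a (chr1:72711275-72711304, plus strand): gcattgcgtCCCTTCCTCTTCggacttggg
Rpl37 (chr15:5116632-5116661, plus strand): gcgggggtgCTTTCTCTTCCggtctctttg
Rps6 (chr4:86857349-86857378, minus strand): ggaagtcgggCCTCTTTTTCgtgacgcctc
Rps9 (chr7:3704025-3704054, plus strand): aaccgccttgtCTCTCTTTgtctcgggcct
Rps3 (chr7:99483673-99483702, minus strand): gcggcgtcattgCTCCCgccctatatacct
Rpl27 (chr11:101442220-101442249, plus strand): cggaaccggaacgCTCTgttcctgtctgct
Rpl22, one start (chr4:152324414-152324443, plus strand): atatcagcgctgCTTCTggaatgttccagc
Rpl22, another start (chr4:152325697-152325726, plus strand): tcccgacagccgaCTTCgccctgggaaaag

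The run had 20 bases in Rpl27a and began 4 bases before the annotated start, and 14 bases in Rpl14, beginning 8 before it. In Rpl37 and Rpl37a it began 29 and 25 bases after the start. A run counted here thus need not lie where the mRNA begins. The run had 10 bases in Rps6, but 5 in Rps3, 4 in Rpl27, and 5 and 4 at the starts given for Rpl22. Rpl7 is the other gene of the 11. CCGGAA, the core bound by ETS factors such as GABP, stood on either strand in the 300 bases of 25 of the 38 members (65.8%), against 16.7% of all genes. On its other strand it begins with pyrimidines, so it can share bases with such a run. AAGATGG, a YY1 motif, stood in 7 members (18.4% against 7.28%), and CACGTG, the palindromic E-box of Myc and related factors, in 4 (10.5% against 8.09%). None of these matches shows that a factor bound.

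Most member probe sets were among the brightest of the array. By the mean log2 signal over the 11 arrays, turned back to a linear value, 65 lay over 10000 and 52 of these over 30000, 13 lay between 100 and 10000, and 17 under 100, of which 10 were tested. These limits were set after the values were seen. Over 30000 there were also 60 of the shared ribosomal probe sets and 59 of all other genes. The brightest member was Rpl38, of the large subunit, at 58924. Rpl12, of the ribosome's stalk base, was the dimmest of the 42 tested genes by its brightest probe set, at 112, so the level of a probe set is not the level of a transcript.

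The median signal of the 65 bright member probe sets was 29763, 28357 and 26376 on the IL-2 arrays 1, 2 and 4. It was 43097, 64404, 41932 and 43361 on the 4.5 h arrays, and 35756, 51219, 39303 and 31108 on the 30 min arrays. All 3 IL-2 arrays thus lay below all 8 others, while the 4.5 h and 30 min arrays overlapped. The 477 other probe sets over 10000 had medians of 13229 to 13974, 17003 to 18993 and 15725 to 18089 in the same order of groups, again with the IL-2 arrays lowest. Member and shared ribosomal probe sets together made up 10.2% to 11.5% of the summed signal with IL-2, 14.8% to 20.0% at 4.5 h and 11.8% to 16.7% at 30 min.

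**Figure D1:**
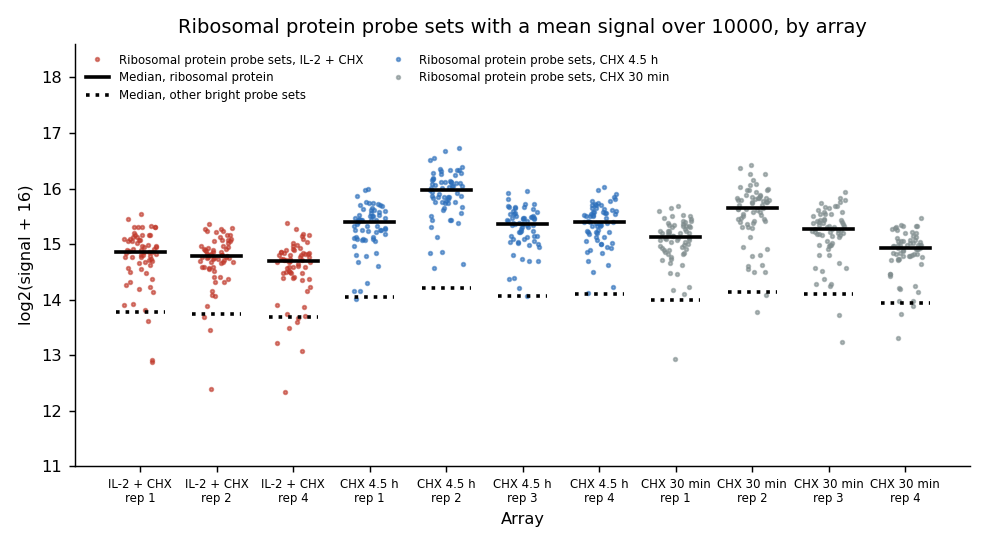
Log2(signal + 16) of the 65 ribosomal protein probe sets with a mean signal over 10000, one column of points per array, with their median (solid bar) and the median of 477 other probe sets over 10000 (dotted bar). The 3 IL-2 plus cycloheximide (CHX) medians lie below those of all 8 other arrays for both kinds of probe set, and replicate 2 is the highest array at 4.5 h and at 30 min.

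Replicate 2 stood apart in both groups without IL-2. At 4.5 h it was the highest array for 65 of the 65 bright member probe sets, and at 30 min for 60 of 65. The 30 min replicate 4 was the lowest of its group for 63 of 65. The 3 prime minus 5 prime log2 difference of the Actb control probe sets, a sign of RNA and labelling quality, was 0.22 to 0.27 with IL-2, 0.42 to 0.80 at 4.5 h and 0.25 to 0.33 at 30 min, with the 0.80 on 4.5 h replicate 2. The part of this in the results was not tested.

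IL-2 at matched time set the IL-2 group against the 4.5 h group. These differ in the cytokine, and also in time in cycloheximide if the drug did not stay during IL-2, which the labels do not say. In limma's fit over 3 groups 52 of 88 member probe sets fell and 0 rose with IL-2 (Benjamini-Hochberg adjusted p under 0.05 over all probe sets tested), where 13.9% of all probe sets tested were called lower and 13.7% higher. At an unadjusted p under 0.05, 75 were lower and 1 higher. No share of all probe sets is given at that unadjusted limit, here or below, so such counts cannot be weighed against one. Without IL-2 replicate 4 the adjusted count was 27, and without IL-2 replicate 2 it was 31. The median log2 difference of the members was −0.73, against −0.02 over all probe sets tested. By the brightest probe set of each gene 30 of 42 genes fell and 0 rose (36 lower and 0 higher unadjusted), 14 of 22 of the large and 16 of 20 of the small subunit. IL-2 and 4.5 h arrays did not overlap for 74 of the 88 probe sets, all with IL-2 below, as for 21.0% of all probe sets tested. With a 2-fold difference also required 10 probe sets fell, where 5.51% of all did. No array of another group shares the scan day of the 4.5 h arrays, so scan day and cytokine cannot be told apart in these values.

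How far these falls exceed those of other bright transcripts depends on the scaling. Of the 65 bright probe sets 45 fell, with a median of −0.74. Among the 477 other probe sets over 10000, 45.5% fell, with a median of −0.48. These others share that lower limit, but their median signal was below that of the members on every array. Over 30000, 35 of 52 member probe sets fell with a median of −0.73, against 49.2% of 59 others with a median of −0.66. Centring the arrays on their median or on bright probe sets of other genes gave 62 and 50 falls, with medians of −0.69 and −0.75. The share of all probe sets called lower after either centring is not given. After cyclic loess normalization 20 of 88 fell, with a median of −0.28, and after quantile normalization 11, with a median of −0.08, where 13.1% and 13.5% of all probe sets were called lower. The bright members had medians of −0.26 and −0.05 there, and the others over 10000 had −0.12 and −0.01. The difference between members and others was not tested. Quantile normalization gives every array the same set of values, so a shift shared by the brightest probe sets is removed by its construction. The 13 member probe sets between 100 and 10000 kept a median of −0.72 as deposited, −0.62 after cyclic loess and −0.70 after quantile normalization, with 7 of 13 falls each time. In these scalings 13.9%, 13.1% and 13.5% of all probe sets tested were called lower. Other probe sets between 100 and 10000 are not set beside these 13, so nothing here sets them apart.

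**Figure D2:**
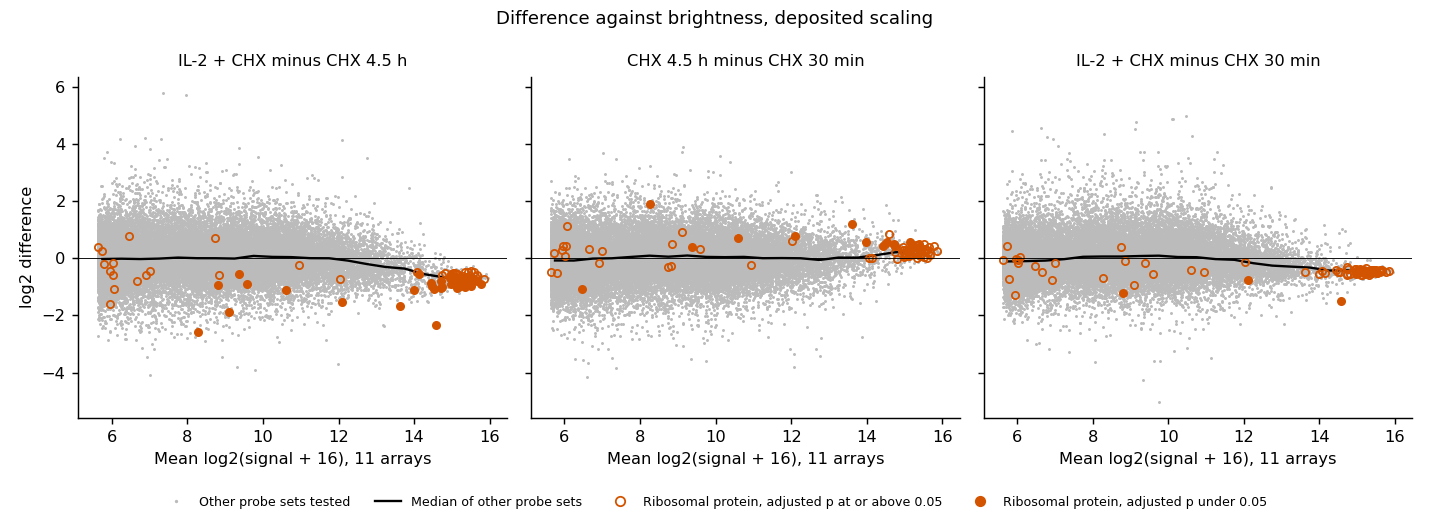
Log2 difference against mean log2(signal + 16) for each of 27022 tested probe sets in the 3 comparisons, in the deposited scaling; circles are ribosomal protein probe sets (filled, adjusted p under 0.05) and the line is the median of the other probe sets. Bright ribosomal protein probe sets lie low in both comparisons with IL-2, where the median of all bright probe sets bends down as well.

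**Figure D3:**
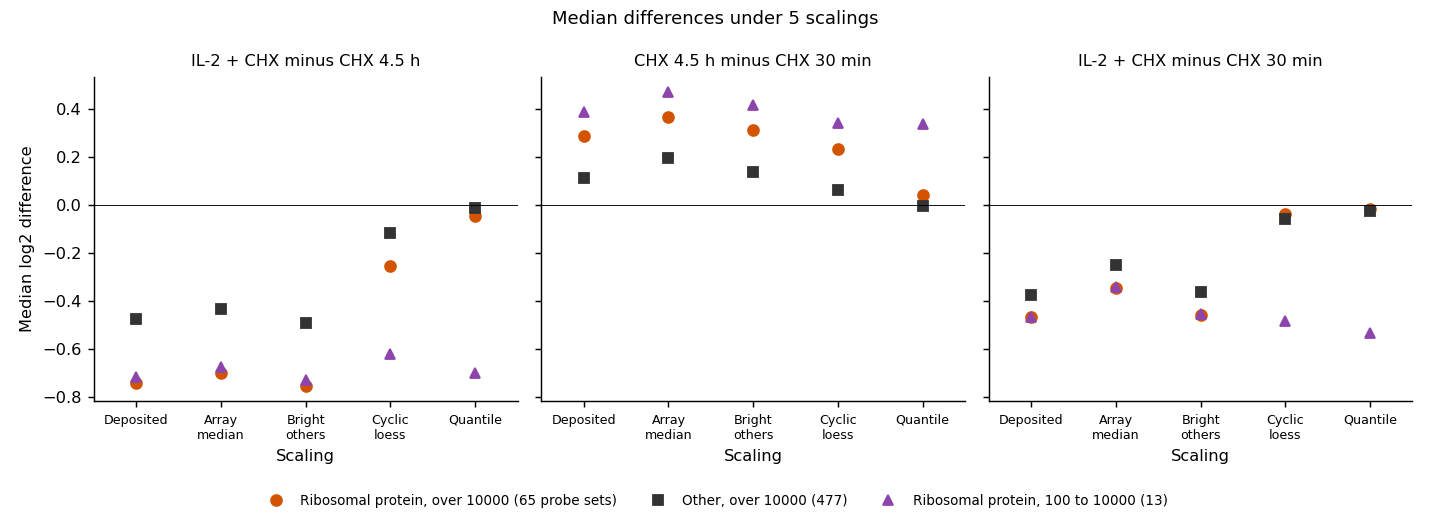
Median log2 difference (y axis) under 5 scalings (x axis) for bright ribosomal protein probe sets (circles, 65), other bright probe sets (squares, 477) and ribosomal protein probe sets of 100 to 10000 (triangles, 13). In the IL-2 against 4.5 h comparison the circles go to −0.05 with quantile normalization, whereas the triangles stay at −0.70.

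Under all 5 scalings 11 of the 88 probe sets, from 11 genes, fell with IL-2 against 4.5 h, where 9.70% of all probe sets tested did. The count is near that share, so what follows describes these probe sets and sets nothing apart in the family. Rpl27a, a large subunit protein, is represented by the probe set 1437729_at, whose signal was 84.6, 152 and 132 with IL-2 and 681, 1238, 756 and 634 at 4.5 h. The highest IL-2 array lay far below the lowest 4.5 h array. The log2 difference was −2.59 ± 0.34 (SE, adjusted p = 0.000487), and it ran from −2.61 to −2.54 over the scalings.

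Rpl37, of the large subunit, had signals of 2939, 2638 and 1898 with IL-2 and 6844, 7957, 7270 and 6670 at 4.5 h. Its groups did not overlap either, with a log2 difference of −1.54 ± 0.18 (SE, adjusted p = 0.00024). Rps6, the small subunit protein that S6 kinases phosphorylate downstream of mTOR, had 1121, 1161 and 885 with IL-2, against 2185, 2347, 2467 and 2065 at 4.5 h. All 4 arrays at 4.5 h were higher than any with IL-2, and the log2 difference was −1.10 ± 0.17 (SE, adjusted p = 0.000994). A second and dimmer Rps6 probe set, with a mean signal of 46.5, differed by −0.45 (adjusted p = 0.496).

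Rpl14, of the large subunit, stood at 263, 322 and 176 with IL-2 and at 516, 574, 427 and 432 at 4.5 h, without overlap. Its log2 difference was −0.93 ± 0.21 (SE, adjusted p = 0.00763). The probe set 1416218_x_at of Rpl37a, a zinc-binding large subunit protein, fell by 1.87 ± 0.42 (SE, adjusted p = 0.00826), though 1 IL-2 array, at 479, lay above the lowest 4.5 h array, at 448. Its other 2 IL-2 arrays were at 210 and 164, and its other 4.5 h arrays at 1384, 1140 and 1266.

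The other 6 came from both subunits. For Rps10, near the mRNA entry of the small subunit, 1439374_x_at stood at 7740, 20521 and 5148 with IL-2, against 40828, 66513, 41571 and 43361 at 4.5 h, a log2 difference of −2.33 ± 0.41 (SE, adjusted p = 0.00224). The IL-2 arrays differed widely among themselves and still lay below all 4.5 h arrays. Rpl7, of the large subunit, had 7476, 5369 and 9590 by 1426163_x_at with IL-2, against 20240, 29728, 21310 and 23259 at 4.5 h, a log2 difference of −1.68 ± 0.25 (SE, adjusted p = 0.000888). The 4.5 h arrays were again all higher.

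Rps9, a core protein of the small subunit, had 12590, 11195 and 8679 by 1434624_x_at with IL-2, against 18293, 29426, 21590 and 25361 at 4.5 h (−1.12 ± 0.21, SE, adjusted p = 0.00307). Rpl27 had 18039, 17269 and 13311 with IL-2, against 29299, 44281, 31536 and 31157 at 4.5 h (−1.06 ± 0.19, SE, adjusted p = 0.00237). Neither pair of groups overlapped. Rps3, which lines the mRNA entry channel, had 511, 593 and 522 by 1455600_at with IL-2, against 793, 911, 726 and 768 at 4.5 h (−0.55 ± 0.13, SE, adjusted p = 0.0124). Rpl22 had 411, 604 and 562 by 1448398_s_at with IL-2, against 900, 1151, 884 and 984 at 4.5 h (−0.89 ± 0.21, SE, adjusted p = 0.00956). Both were also free of overlap, with smaller differences. Over the scalings Rps3 ran from −0.60 to −0.50 and Rpl22 from −0.94 to −0.85, while the brighter Rpl27 ran from −1.08 to −0.51. Rps3, Rpl27, Rpl37a, Rpl7, Rps9, Rps10 and Rpl22 each have a brighter probe set than the one above. As deposited their brightest probe sets fell, except that of Rps3 (limma, adjusted p = 0.0864). After quantile normalization none of these passed, at 0.12, −0.02, −0.06, −0.04, −0.30, −0.27 and −0.36 in the same order.

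**Figure D4:**
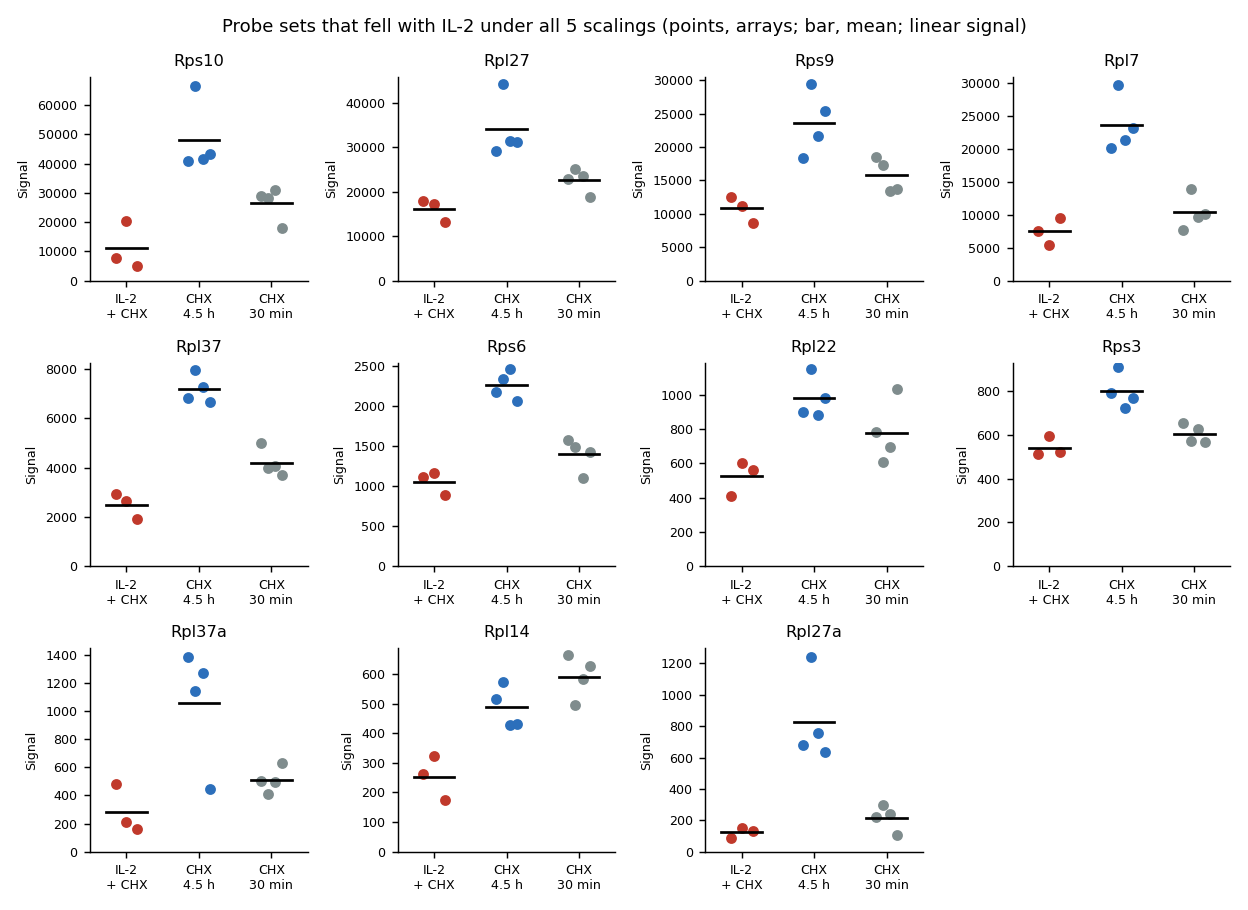
Linear signal (y axis) on each array of IL-2 plus cycloheximide, 4.5 h and 30 min (points, with the mean as a bar) for the 11 probe sets that fell with IL-2 against 4.5 h under 5 scalings. The IL-2 arrays lie below all 4.5 h arrays in every panel except Rpl37a, and only for Rpl14 is the 30 min mean above the 4.5 h mean.

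Further members are given by their brightest probe set. Those below that passed fell by 0.58 to 1.04, and none of them passed after quantile normalization. After cyclic loess normalization Rps4x (adjusted p = 0.0256), Rpl8, Rpl22 and Rpl11 still passed, and the others did not. Rplp0 and Rplp2 form the stalk that recruits elongation factors. Rplp2 stood at 36530, 34129 and 31276 with IL-2, against 54641, 77691, 51500 and 55775 at 4.5 h, a log2 difference of −0.80 ± 0.20 (SE, adjusted p = 0.0147) that was −0.10 (adjusted p = 0.538) after quantile normalization. Rplp0 stood at 36855, 33393 and 29761 with IL-2, against 47126, 82595, 46568 and 51269 at 4.5 h. Its groups did not overlap, but the 4.5 h arrays spread widely, and the difference of −0.73 ± 0.27 (SE) did not pass (adjusted p = 0.0671).

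In the small subunit, Rpsa, which is also known as the laminin receptor, fell by 0.94 ± 0.23 (SE, adjusted p = 0.0131) and differed by −0.23 (adjusted p = 0.262) after quantile normalization. Rps4x, the X-linked form of S4, fell by 1.00 ± 0.20 (SE, adjusted p = 0.00447), and Rps29, a zinc-finger protein of the subunit's head, by 0.90 ± 0.24 (SE, adjusted p = 0.0187). Rps19 stood at 24447, 27829 and 21286 with IL-2, against 35840, 42371, 33473 and 34255 at 4.5 h, again without overlap. Rps14 and Rps19, whose loss causes anemias in people, fell by 0.74 ± 0.22 (adjusted p = 0.0284) and 0.58 ± 0.17 (adjusted p = 0.0277). Of the 42 genes 8 turned sign after quantile normalization, 2 of them falls as deposited, with none passing there. These 2 were Rpl19, at 0.02 (adjusted p = 0.932), and Rps19, at 0.07 (adjusted p = 0.738), and Rps14 was then at −0.02 (adjusted p = 0.926).

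Among the large subunit proteins, Rpl8 fell by 1.04 ± 0.21 (SE, adjusted p = 0.0047) and Rpl22, whose loss blocks alpha-beta T cell development in mice, by 0.99 ± 0.20 (SE, adjusted p = 0.00455). Rpl11, which can bind and restrain Mdm2 as part of the 5S particle, had 21261, 21306 and 19093 with IL-2 and 31902, 44354, 32647 and 34653 at 4.5 h. It fell by 0.79 ± 0.16 (SE, adjusted p = 0.0042), and Rpl10a by 0.83 ± 0.20 (SE, adjusted p = 0.0112). None of these 4 passed after quantile normalization, with adjusted p of 0.0776, 0.0754, 0.309 and 0.476. After cyclic loess normalization Rpl8 (−0.62, adjusted p = 0.0238), Rpl22 (−0.58, adjusted p = 0.0198) and Rpl11 (−0.38, adjusted p = 0.0476) passed. Rpl10a did not (−0.37, adjusted p = 0.104). Rpl38, the brightest member and known for its role in translating Hox mRNAs in mouse embryos, had 47494, 42033 and 42564 with IL-2 and 65182, 104947, 62315 and 64256 at 4.5 h, and differed by −0.72 ± 0.25 (SE) and did not pass (adjusted p = 0.055). Rpl39, which lines the exit tunnel, had 618, 565 and 481 with IL-2 and 430, 147, 362 and 498 at 4.5 h, with overlap. Rpl39 (0.72, adjusted p = 0.199), Rpl12 (−0.45, adjusted p = 0.27) and Rps27 (−0.58, adjusted p = 0.323), all dim, did not pass either.

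Of the 42 tested genes 20 had at least 2 tested probe sets, and the part of brightness in their differences was not tested. None of the 20 was called in both directions. The range between a gene's probe sets had a median of 0.41 (log2) in this comparison. For Rps10, with 6, the brightest differed by −0.98 and the dimmest, at a signal of 49.1, by −0.16, while 1439374_x_at, at 24425, differed by −2.33 and had 1 IL-2 array far from the other 2 (20521 against 7740 and 5148). For Rps24, also with 6, differences ran from −1.60 to 0.79, both ends from probe sets under 100.

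**Figure D5:**
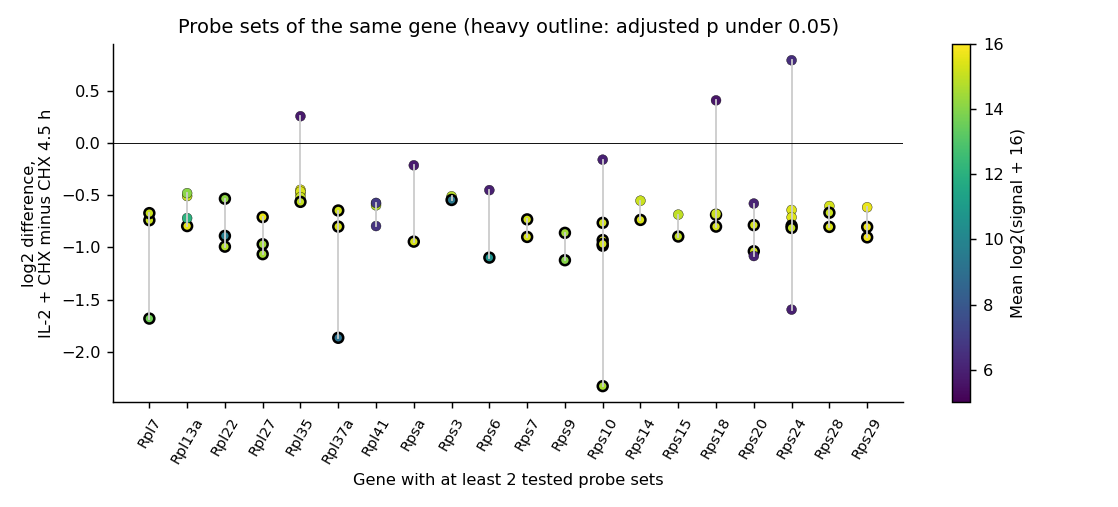
Log2 difference of IL-2 plus cycloheximide minus 4.5 h (y axis) for each tested probe set of the 20 genes with at least 2, coloured by mean log2(signal + 16), with a heavy outline where adjusted p was under 0.05. The probe sets over 10000 of 17 genes span a median of 0.21, with wider spans for Rps10 and Rpl7, and the points above 0, of Rpl35, Rps18 and Rps24, are all dark, with signals under 100.

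Time in cycloheximide without IL-2, 4.5 h set against 30 min, gave few calls among members. In limma's fit 10 of 88 member probe sets rose and 1 fell, where 16.4% of all probe sets tested were called higher and 15.1% lower, and the median was 0.29, against 0.01 over all. By the brightest probe set 5 of 42 genes rose and 0 fell (10 and 0 at an unadjusted p under 0.05). Of the 65 bright probe sets 6 rose, against 21.8% of the 477 others as bright. With a 2-fold difference also required 3 members were called, where 13.2% of all were. Group and scan day again cannot be told apart. The count of 11 was 22 with median centring, and it was 5 without 4.5 h replicate 2 and 6 without 30 min replicate 4. The difference was above 0 for 78 of the 88 probe sets, so few calls do not show that members stayed unchanged. After quantile normalization it was above 0 for 56 of 88, with 7 rises and 1 fall. After cyclic loess normalization it was above 0 for 74, with 12 rises and 1 fall. By the brightest probe set the median of 0.3 became 0.07 and 0.25 with these normalizations. No shares of all probe sets are set beside these counts.

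Rpl27a rose most, at 681, 1238, 756 and 634 at 4.5 h, against 221, 296, 239 and 106 at 30 min. The groups did not overlap, and the log2 difference was 1.89 ± 0.32 (SE, adjusted p = 0.00133). Rpl37 stood at 6844, 7957, 7270 and 6670 at 4.5 h and at 4990, 3967, 4052 and 3700 at 30 min, and rose by 0.79 ± 0.16 (SE, adjusted p = 0.00469). Rps6 rose by 0.70 ± 0.15 (SE, adjusted p = 0.00602), with 4.5 h arrays of at least 2065 and 30 min arrays of at most 1582.

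Rpl11 (0.50, adjusted p = 0.0231) and Rps9 (0.45, adjusted p = 0.0317) rose as well, but were at 0.28 (adjusted p = 0.0585) and 0.23 (adjusted p = 0.171) after quantile normalization. The 5 probe sets that rose under all 5 scalings, where 14.9% of all probe sets did, belong to Rpl27a, Rpl37, Rps6, Rpl7 and Rpl27. That of Rpl7, 1426163_x_at, stood at 20240, 29728, 21310 and 23259 at 4.5 h and at 7760, 13952, 9684 and 10160 at 30 min, a log2 difference of 1.20 ± 0.23 (SE, adjusted p = 0.00287), whereas 2 brighter Rpl7 probe sets differed by 0.26 and 0.31 and did not pass (adjusted p = 0.281 and 0.199). The 1 fall was a dim Rps24 probe set with a signal of 72.1 (−1.07, adjusted p = 0.0183).

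IL-2 set against 30 min joins the cytokine and 4 further hours, and 6 of its 7 arrays came from 1 scan day (3 of each group), with the 30 min replicate 3 from another. In limma's fit 4 of 88 member probe sets fell and 0 rose, where 10.9% of all were called lower and 12.5% higher. At an unadjusted p under 0.05, with no share of all probe sets beside it, 35 were lower and 0 higher. The count of 4 was 2 without IL-2 replicate 4 or 30 min replicate 1, 12 without 30 min replicate 4 and 17 without 4.5 h replicate 2. It was 27 with trend and robust settings and 23 with a 60th percentile filter. The share of all probe sets called under each of these settings is not given. The count of 4 thus does not show that members fell less often than other probe sets, and the other counts do not show the reverse. The median was −0.47, against −0.04 over all. By the brightest probe set 3 genes of 42 fell, Rpl14, Rpl37 and Rps19. Of the 65 bright probe sets 2 fell, against 25.8% of the 477 others as bright. With a 2-fold difference also required 2 members were called, where 10.6% of all were. Within the shared scan day, and with scan day as a block, the member median was −0.44 and 1 member was called. The median was −0.05 after cyclic loess and −0.03 after quantile normalization, with 3 falls each, where 10.9% and 11.5% of all were called lower.

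Rpl14 stood at 263, 322 and 176 with IL-2, against 663, 494, 583 and 626 at 30 min, and Rpl37 at 2939, 2638 and 1898 against 4990, 3967, 4052 and 3700. Neither overlapped. Rpl14 fell by 1.20 ± 0.21 (SE, adjusted p = 0.00203) and Rpl37 by 0.76 ± 0.18 (SE, adjusted p = 0.0108), and both did so under all 5 scalings, where 6.22% of all probe sets did. Rps19 fell by 0.53 ± 0.17 (SE, adjusted p = 0.0426), but was at −0.12 (adjusted p = 0.61) after quantile normalization. Rpl27a (−0.69 ± 0.34, adjusted p = 0.175) and Rps6 (−0.40 ± 0.17, adjusted p = 0.11) did not pass, and Rps6 did after quantile normalization (−0.49, adjusted p = 0.0493). The comparisons share arrays, so their values for a gene are not independent.

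Of the 103 tested probe sets listed with a member and other genes, 72 fell and 2 rose with IL-2 against 4.5 h, where 13.9% of all probe sets were called lower. Their median was −0.77, and after quantile normalization 19 fell, with a median of −0.15. At 4.5 h against 30 min 11 rose and 2 fell (median 0.26, or 0.02 after quantile normalization), where 16.4% of all were called higher. With IL-2 against 30 min 16 fell and 1 rose (−0.49, or −0.07 after quantile normalization), where 10.9% of all were called lower. No test compared them with the members.

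Genes around the ribosomal proteins were read from lists of their own, by the brightest probe set. Fau, whose product is cleaved to release the small subunit protein S30, fell with IL-2 against 4.5 h (−0.61, adjusted p = 0.0391), though it stood at 0.10 after quantile normalization. Of 15 tested genes outside the family whose mRNAs also carry a TOP motif, 9 fell with IL-2 against 4.5 h (median −0.63) and 5 fell with IL-2 against 30 min (−0.42), where 13.9% and 10.9% of all probe sets, and 45.5% and 25.8% of other bright ones, were called lower. The median between 4.5 h and 30 min was 0.09. After quantile normalization 3 fell and 1 rose with IL-2 against 4.5 h (median −0.22), and the median with IL-2 against 30 min was −0.09. Eef1b2, an elongation factor subunit (−0.78, adjusted p = 0.00404), and Npm1, a nucleolar chaperone (−0.80, adjusted p = 0.00648), were among the falls. Pabpc1, the poly(A)-binding protein, fell with IL-2 against 30 min (−1.20, adjusted p = 0.00166).

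Of 7 chaperones and assembly partners of the ribosome 5 rose at 4.5 h against 30 min (median 0.98), where 16.4% of all probe sets did. With IL-2 against 30 min 6 rose (0.95), where 12.5% did, and 1 rose and 1 fell with IL-2 against 4.5 h (0.05). After quantile normalization the counts of 5 and 6 were the same, with medians of 0.92 and 0.91. Heatr3, which helps carry Rpl5 to the nucleus, rose by 2.00 ± 0.17 (SE, adjusted p = 3.7e-05) and Grwd1, whose yeast counterpart is a chaperone of Rpl3, by 0.98 ± 0.11 (SE, adjusted p = 0.000193) at 4.5 h against 30 min. Nle1, an assembly factor of the large subunit (1.48, adjusted p = 0.000642), and Tsr2, whose yeast counterpart escorts Rps26 (1.14, adjusted p = 0.0085), rose too, while Rps26 itself was at 0.30 (adjusted p = 0.287).

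Of 8 tested regulators of these mRNAs, 1 rose and 3 fell with IL-2 against 4.5 h, where 13.7% of all probe sets rose and 13.9% fell. Larp1, which binds the TOP motif, rose by 0.53 ± 0.13 (SE, adjusted p = 0.0109), and the translation repressors Eif4ebp1 (−0.82, adjusted p = 0.0144) and Eif4ebp2 (−1.05, adjusted p = 0.0234) fell with Rptor, the mTOR partner raptor (−0.64, adjusted p = 0.00972). Of 3 tested paralogs outside the rule, Rpl22l1 (−1.50, adjusted p = 0.00478) and Rps27l, a p53 target (−0.72, adjusted p = 0.00434), fell with IL-2 against 4.5 h, and Rpl7l1 did not pass (0.34, adjusted p = 0.102). Mitochondrial ribosomal proteins, which belong to a separate ribosome, were called in both directions. Of 76 genes 20 fell and 6 rose with IL-2 against 4.5 h (median −0.25, and −0.29 after quantile normalization), 17 rose and 5 fell at 4.5 h against 30 min (0.22), and 8 rose and 13 fell with IL-2 against 30 min (−0.09). Of all probe sets 13.9% fell and 13.7% rose in the first comparison, 15.1% and 16.4% in the second, and 10.9% and 12.5% in the third.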

How the data were processed

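Per the file headers and labels, the values are 1 linear signal intensity per probe set and array, which the authors deposited from GCOS 1.3, per the submitters' processing notes. On each array the deposited intensity had a 2% trimmed mean of 500.0. How background and probes were handled is not given in the sources used here. Of 45037 probe sets besides 64 controls, 34945 had 1 gene symbol in the platform annotation, 932 several and 9160 none. Of the pairs of arrays 0 held identical values.

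Values were taken as log2(signal + 16), so differences understate changes of dim probe sets. Probe sets at or above the 40th percentile of the mean (a signal of 33.6) were tested by lmFit and eBayes of limma 3.58.1 in R 4.3.3, in 1 model over 3 groups and 11 arrays, with Benjamini-Hochberg adjustment over all 27022. "Called", "rose" and "fell" mean an adjusted p under 0.05. The procedure was tested on simulated data with independent noise for each probe set and array. Shifts shared by the bright probe sets of an array were not part of that test. Alternatives were other scalings, pseudocounts of 1 and 64, other filters, trend and robust eBayes, the 12th array, only the 2 groups compared, replicate and scan day blocks, probe sets without _s_at or _x_at, a 2-fold limit, averaging each gene's probe sets, and leaving out each array. Leaving out both arrays numbered 2 of the 4.5 h and 30 min groups was added after seeing the data.

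Named members are those with up to 10 of the largest rises and falls by the brightest probe set in each comparison, with a list of others; probe sets that passed under all 5 scalings, and those of genes with several, were named after their values were seen. Up to 4 genes of each other list were named by p-value. Members and lists were chosen with earlier results of these data known. Figures were drawn with matplotlib 3.10.9 in python 3.11.15.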

Additional observations from a re-analysis of the deposited data

Results flagged for a closer look

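Named members, by their brightest probe set, and the median of the bright members were checked for single outlying arrays. In the 4.5 h group replicate 2 stood above the other 3 arrays by more than Dixon's 95% critical value for 4 samples for 10 named genes and for that median. Members not named were not checked, though Rpl19 for 1 stood at 70138 on that array, against 42180 to 43483 on the other 3. Of 44 groups tested 11 were picked out in this way, where chance gives about 1 in 20, and these 11 share 1 array. Its signals were 104947 for Rpl38, 108826 for Rps29, 95895 for Rps10, 82595 for Rplp0 and 77691 for Rplp2. They were 74202 for Rps14, 69820 for Rpsa, 60868 for Rpl10a, 50327 for Rpl22 and 48483 for Rpl8. The median log2 signal of the 65 bright member probe sets was 15.975 on that array, against 15.36 to 15.41 on the other 3 arrays of its group. Without that array and the 30 min array of the same number the member medians were −0.58 for IL-2 against 4.5 h, 0.25 for 4.5 h against 30 min and −0.33 for IL-2 against 30 min.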

How the results depend on the processing

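For IL-2 against 4.5 h, 52 member probe sets were called, and 11 with quantile and 20 with cyclic loess normalization, 34 of 95 without a filter, 6 with all 12 arrays, 27 of 48 without _s_at and _x_at probe sets, and 10 with a 2-fold limit. Leaving out 1 array gave 27 to 62 (27 without IL-2 replicate 4, 31 without IL-2 replicate 2). The median of −0.73 became −0.078 and −0.28 with those normalizations and was −0.80 to −0.58 leaving out 1 array. For 4.5 h against 30 min the count of 11 was 22 with median centring, 5 without a filter, 3 with 12 arrays, 19 with trend and robust settings, 6 without _s_at and _x_at, 3 with a 2-fold limit and 5 to 15 leaving out 1 array (5 without 4.5 h replicate 2, 6 without 30 min replicate 4), with medians of 0.13 to 0.40. For IL-2 against 30 min the count of 4 was 23 with a 60th percentile filter, 0 with 12 arrays (limma, 2 at an unadjusted p under 0.05), 2 with the 2 groups alone, 1 with a scan day block and 1 within scan day 1, 27 with trend and robust settings, 2 without _s_at and _x_at, 2 with a 2-fold limit and 2 to 17 leaving out 1 array (2 without IL-2 replicate 4 or 30 min replicate 1, 12 without 30 min replicate 4, 17 without 4.5 h replicate 2). Its median of −0.47 became −0.03 with quantile and −0.053 with cyclic loess normalization, and −0.56 to −0.33 leaving out 1 array. Same-numbered arrays of different groups correlated at −0.02 to 0.22 in their deviations. Between IL-2 and 30 min arrays the same-numbered pairs were at 0.126, 0.091 and 0.216, and pairs of unlike number at −0.193 to 0.165. These values do not settle whether the numbers pair the arrays, and the main fit did not pair them. With a replicate block 60, 11 and 8 were called in the 3 comparisons. The counts in this section are of members, without the share of all probe sets called under each setting. Among the values of named members that had passed, 1 changed sign, that of Rps19 with quantile normalization for IL-2 against 4.5 h (0.074). By the brightest probe set, passed or not, 8, 8 and 12 of 42 genes changed sign with quantile normalization in the 3 comparisons. The causes were not tested, except that quantile normalization equalises the brightest values by construction and that 12 arrays add the array without T cell transcripts.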
